A study of Mus musculus with 19 samples.

Results

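The genes described here are the interferon-stimulated genes of mouse kidney together with the receptors and transcription factors that act upstream of them. They were chosen by gene symbol: the numbered Ifi genes and the Ifit, Ifitm, Oas, Irf, Gbp, Irgm, Iigp, Isg, Mx, Stat, Ifnar and Ifngr families, plus Bst2, Rsad2, Usp18, Rtp4, Xaf1, Zbp1, Cmpk2, Ddx58, Ifih1, Dhx58, Parp9, Parp14 and Dtx3l. Of 55536 gene identifiers 98 matched by symbol, and the 86 with at least 100 reads summed over the 19 libraries were kept. The 12 others held 0 to 58 reads each. The gene just inside this limit was Gbp2b with 116 reads, and the gene just outside it was Ifi27l2b with 58. All 86 also passed the filter on low counts and are among the 16026 genes tested.

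RNA sequencing of whole kidney covered 3 groups, namely 8 libraries of obstructed kidneys given zalfermin, 7 of obstructed kidneys given vehicle and 4 of healthy kidneys. UUO, the term of the series design, is short for unilateral ureteral obstruction, in which tying off a ureter leads to inflammation and fibrosis of the kidney, and zalfermin is a long-acting analogue of the hormone FGF21. The sample labels name the condition of both obstructed groups MASH where the design has UUO, they call the healthy kidneys untreated where the design has vehicle, and they give the drug as a code taken here to be zalfermin. The sources used here do not give strain, sex, age, genotype, dose or time of collection. The labels do not tie each library to an animal of its own, so p-values measure the spread between these libraries, which may in part be technical.

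Interferons signal through paired receptor chains and JAK kinases to STAT transcription factors. Type I interferons act mainly through a STAT complex with IRF9 that binds the interferon-stimulated response element (ISRE), and interferon gamma acts mainly through STAT pairs that bind GAS elements. The genes induced in this way encode sensors of foreign nucleic acid, antiviral effectors, GTPases that attack intracellular microbes, and factors such as IRF7 that feed back on interferon production; in the kidney such genes are known from infiltrating immune cells as well as from resident cells.

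The start regions of these genes carry recognisable response elements, and a few are shown because the genes are those on which the results below turn. Windows of 300 bases, 250 before and 50 after the RefSeq transcript start on GRCm38.p6, were at hand for 64 of the 86 genes. They were searched on both strands for the ISRE core GAAANNGAA, which reads TTCNNTTTC on the other strand, and for the GAS element TTCNNNGAA. The ISRE core was present in 35 of 79 windows of these genes (44.3%), against 8.56% of all 32851 windows, and GAS was present in 15 (19%), against 8.3% of all windows. Counted by window, so that cores of Ifit1bl1 in overlapping windows count more than once, there were 57 ISRE cores. Of these, 52 began upstream of the start of their window's transcript and 45 within 150 bases upstream of it. Isg15 held 3 overlapping cores, and Oas1a, Bst2, Ifitm3 and Gbp3 held 2 each. In Bst2 and Ifitm3 the ISRE core overlapped a GAS match. The sequences below run 5′ to 3′ on the strand of the gene, and capitals mark the ISRE core. Oas1a and Bst2 are given as whole windows, as genes with a core that were lower with zalfermin than with vehicle. Ifngr2 is the contrast, a receptor gene higher with obstruction whose window held neither element. For Isg15 (added after its values were seen), Ifitm3, Ddx58, Gbp3 and Ifi207 only the first core with 16 bases on each side is printed.
Oas1a (chr5:120907476-120907775, minus strand): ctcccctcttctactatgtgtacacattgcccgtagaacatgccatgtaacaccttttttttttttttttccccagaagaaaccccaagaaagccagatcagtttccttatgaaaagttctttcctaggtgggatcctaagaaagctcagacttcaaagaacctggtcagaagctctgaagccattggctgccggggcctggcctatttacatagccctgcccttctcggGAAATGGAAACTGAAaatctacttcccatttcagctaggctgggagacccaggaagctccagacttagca
Bst2 (chr8:71537423-71537722, minus strand): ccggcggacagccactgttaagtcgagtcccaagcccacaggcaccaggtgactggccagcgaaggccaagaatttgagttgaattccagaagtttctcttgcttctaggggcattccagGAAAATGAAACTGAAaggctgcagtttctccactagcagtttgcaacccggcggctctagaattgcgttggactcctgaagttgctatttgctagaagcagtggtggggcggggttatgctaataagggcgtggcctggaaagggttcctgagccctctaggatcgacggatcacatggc
Ifngr2 (chr16:91546809-91547108, plus strand): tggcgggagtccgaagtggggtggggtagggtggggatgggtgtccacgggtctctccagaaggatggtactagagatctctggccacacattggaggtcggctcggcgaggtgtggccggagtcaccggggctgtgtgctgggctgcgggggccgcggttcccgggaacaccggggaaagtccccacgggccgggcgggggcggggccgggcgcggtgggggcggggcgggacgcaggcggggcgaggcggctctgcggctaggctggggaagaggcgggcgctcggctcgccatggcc
Isg15 (chr4:156200872-156200912, minus strand): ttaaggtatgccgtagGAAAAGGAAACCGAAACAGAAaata
Ifitm3 (chr7:141010718-141010758, minus strand): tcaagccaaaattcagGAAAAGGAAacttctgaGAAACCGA
Ddx58 (chr4:40239798-40239838, minus strand): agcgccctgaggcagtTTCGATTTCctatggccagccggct
Gbp3 (chr3:142559984-142560024, plus strand): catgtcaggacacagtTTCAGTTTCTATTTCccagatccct
Ifi207 (chr1:173741826-173741866, minus strand): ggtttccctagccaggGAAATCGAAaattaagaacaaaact

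The calls of the comparisons below are given here by whether the window held a core. Of the 34 genes with an ISRE core 29 were higher and 3 lower in vehicle-treated obstructed than in healthy kidneys, with a median log2 fold change of 1.54, and of the 30 genes with a window but no core 26 were higher and 1 lower, with a median of 1.49. Among the 4 genes lower with obstruction, Ifit1bl1, Ifit1bl2 and Rsad2 held cores and Cmpk2 did not. Among the 8 genes lower with zalfermin, Isg15, Oas1a, Ifitm3 and Bst2 held cores, Irf7, Oasl2 and Xaf1 did not, and no window was at hand for Ifi27l2a. A match of these letters describes the sequence and is not evidence of binding.

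Libraries held 12209122 to 14844103 reads assigned to genes. Levels are given as CPM, the read count scaled to the TMM-adjusted size of its library, either by library or as mean ± SD (n = 8 zalfermin, 7 vehicle and 4 healthy), and fold changes as log2 from edgeR's quasi-likelihood model, with adjusted p by Benjamini-Hochberg over all 16026 genes and a call at adjusted p under 0.05. The kidney identity of the samples was checked by 8 nephron markers, whose summed level was 5868 to 8051 CPM in zalfermin, 5340 to 9372 CPM in vehicle and 19769 to 20267 CPM in healthy libraries. Vehicle replicate 6 stood apart from the other obstructed libraries, with 19788 genes detected against 21333 to 22216, and with 1.10% of its reads from mitochondrial genes against 2.95% to 4.25%. Calls that changed when it was left out are given below.

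Most of the interferon-related genes were higher with obstruction. Of the 86 genes 73 (84.9%) were called higher and 4 lower in vehicle-treated obstructed than in healthy kidneys, and 9 were not called. Obstruction changed much of the transcriptome, with 64.8% of all tested genes called (36.2% higher and 28.6% lower). The median log2 fold change was 1.46 over the 86 genes and 0.09 over all tested genes. At least a 2-fold rise was seen for 62 genes, at least 4-fold for 28 and at least 8-fold for 9. The shares of all tested genes at these folds are not given here, so these counts do not show how far the 86 genes stand out. For 64 genes every vehicle library lay above every healthy library, which held for 24.7% of all tested genes. In whole tissue, more cells of a type that carries a transcript and more transcript per cell cannot be told apart. In the same libraries the summed level of 8 macrophage markers, all called higher, was 968 to 1285 CPM in vehicle against 147 to 177 CPM in healthy kidneys, and that of 8 T and NK cell markers, also all called higher, was 17.4 to 30.7 CPM against 4.36 to 6.57 CPM. All 4 fibroblast markers were called higher, with a sum of 1625 to 2917 CPM against 126 to 189 CPM. So were all 4 monocyte, all 4 neutrophil and all 4 conventional dendritic cell markers, and both tested plasmacytoid dendritic cell markers. Of 3 tested B and plasma cell markers 1 was called higher, and of 4 endothelial markers 2 were called higher and 1 lower. All 8 nephron markers were called lower. The part of these cells in the rise was not tested.

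**Figure D1:**
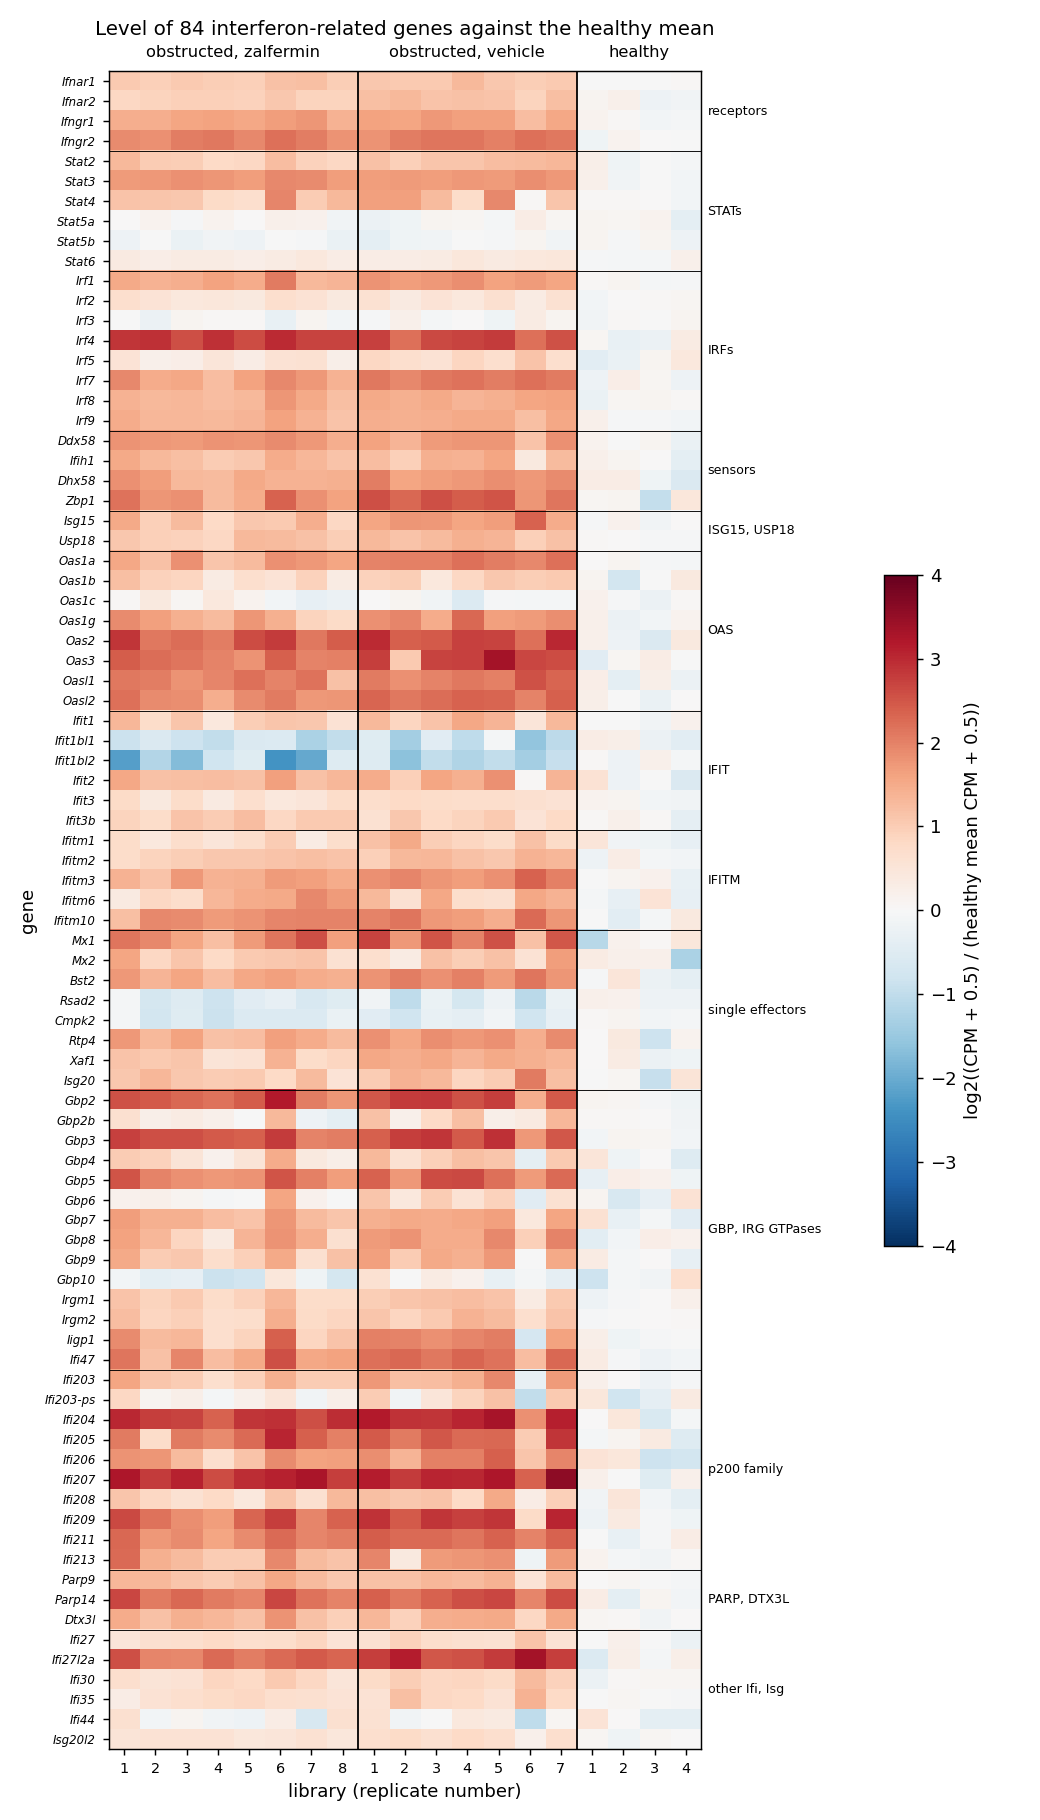
Level of 84 of the 86 genes (rows, grouped by role) in each of the 19 libraries (columns, numbered by replicate within zalfermin, vehicle and healthy), as log2 of the level plus 0.5 CPM over the healthy mean plus 0.5 CPM. Most rows are red in both obstructed groups, Ifit1bl1, Ifit1bl2, Rsad2 and Cmpk2 are blue there, and vehicle replicate 6 is paler than the other vehicle libraries among the GBP and IRG GTPases.

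All 4 interferon receptor chains rose with obstruction. Ifngr2, the signalling chain of the interferon gamma receptor, had 87.9 to 115 CPM (median 108) in vehicle kidneys, against 22, 27.4, 24.9 and 24.8 CPM in healthy kidneys. The groups lay far apart, and the difference was 4.24-fold (log2 2.08, SE 0.10, adjusted p = 1.43e-13, edgeR). Ifngr1, its ligand-binding chain, rose 3.01-fold, while the type I receptor chains Ifnar1 and Ifnar2 rose 2.12-fold and 2.25-fold. Between zalfermin and vehicle kidneys the 4 chains had log2 fold changes of -0.08 for Ifngr2, -0.01 for Ifngr1, -0.04 for Ifnar1 and -0.22 for Ifnar2, none of them called by edgeR, with 1 at an unadjusted p under 0.05. Ifnar2, with an adjusted p of 0.118 (edgeR), was called lower by DESeq2, by voom and without vehicle replicate 6.

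Of the 6 STAT genes described here, 4 rose with obstruction and the pair Stat5a and Stat5b, which relay growth hormone, prolactin and several cytokines, was not called by edgeR. Stat5b (log2 -0.11, adjusted p = 0.302, edgeR) was called lower by voom and, without vehicle replicate 6, by edgeR (log2 -0.20, adjusted p = 0.0315). Between zalfermin and healthy kidneys Stat5b was not called by edgeR with all libraries (log2 -0.14, adjusted p = 0.159), but was called lower without vehicle replicate 6, in a fit of these groups alone, with RLE scaling, by DESeq2 and by voom. Stat3, which relays interleukin 6 family signals, had 233 to 265 CPM (median 239) in vehicle kidneys, against 84.4, 66.3, 72.8 and 68.2 CPM in healthy kidneys. It rose 3.33-fold with no overlap of the groups (log2 1.73, SE 0.09, adjusted p = 1.68e-13, edgeR). Stat2, a part of the type I complex, rose 2.29-fold, Stat4, which acts downstream of interleukin 12 and had the lowest level of these per kilobase, rose 5.25-fold, and Stat6, which acts downstream of interleukins 4 and 13, rose 1.3-fold. In zalfermin kidneys these STAT genes differed from vehicle by log2 values of -0.18 to 0.05. None was called by edgeR, DESeq2 or voom, and 1, Stat2, had an unadjusted p under 0.05.

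Of 8 interferon regulatory factors described here 7 rose with obstruction. The largest fold was that of Irf4, a factor of lymphocytes and of alternatively activated macrophages, with 6.27 to 9.84 CPM (median 8.73) in vehicle kidneys, against 1.07, 0.71, 0.759 and 1.38 CPM in healthy kidneys. This was 8.46-fold, the groups being wide apart (log2 3.08, SE 0.21, adjusted p = 1.85e-11, edgeR). Irf7, the interferon-induced amplifier of type I interferon production, rose 4.39-fold, Irf1, an early target of interferon gamma, 3.32-fold, Irf8, a factor of myeloid development, 2.87-fold and Irf9, the DNA-binding part of the type I complex, 2.77-fold. The rises of Irf5, which acts downstream of Toll-like receptors, and Irf2, a competitor of IRF1, were smaller, at 1.75-fold and 1.43-fold. Irf3, the constitutive factor that is switched on by phosphorylation, had 59.1 ± 6.27 CPM in zalfermin, 63.3 ± 7.91 CPM in vehicle and 60.7 ± 4.59 CPM in healthy kidneys and was not called.

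The 4 sensor genes rose with obstruction. Ddx58, which encodes the RNA sensor RIG-I, had 55.9 to 90.6 CPM (median 83.7) in vehicle kidneys, against 27.8, 24.9, 27.3 and 20.7 CPM in healthy kidneys. The rise was 3.1-fold, without overlap (log2 1.63, SE 0.13, adjusted p = 1.84e-10, edgeR). Zbp1, a sensor of left-handed nucleic acid that can start necroptosis, rose 6.12-fold, and Dhx58, a RIG-I relative without signalling domain, 3.91-fold. Isg15, a ubiquitin-like modifier, rose 3.73-fold, and Usp18, the protease that removes it and damps type I receptor signalling, 2.57-fold.

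The antiviral effector genes were higher with obstruction in most families. The OAS genes, a family of which some products make the second messenger that activates RNase L, had some of the largest folds. Of 8 OAS genes 7 rose. Oas2 had 9.17 to 16.5 CPM (median 13.3) in vehicle kidneys, against 1.96, 1.33, 0.927 and 2.26 CPM in healthy kidneys. This was an 8.01-fold rise with no overlap (log2 3.0, SE 0.26, adjusted p = 9.15e-10, edgeR). Oas1a rose 5.03-fold and Oasl2 5.0-fold. Oas3, named after its values were seen as the largest fold of the 86, was 14.5-fold higher, with 4.67 ± 1.88 CPM in vehicle and 0.311 ± 0.173 CPM in healthy kidneys. Oas1c was not called, at 5.26 ± 0.763 CPM in vehicle and 5.67 ± 0.708 CPM in healthy kidneys. All 5 IFITM genes, a family of which some products block viral entry at membranes, rose, among them Ifitm3 (3.87-fold), Ifitm10 (5.03-fold) and Ifitm2 (2.37-fold). Per kilobase of exon, Ifitm3 had the highest level of the 86 genes in both obstructed groups, with 119 CPM per kb in zalfermin and 162 CPM per kb in vehicle kidneys. In healthy kidneys Ifi30, a lysosomal thiol reductase of antigen processing, stood first with 50.9 CPM per kb, and Ifitm3 had 41.8 CPM per kb.

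The IFIT family, whose products bind foreign RNA ends, was split. Ifit1, Ifit2, Ifit3 and Ifit3b rose, by 2.34-fold, 2.55-fold, 1.63-fold and 1.82-fold, while the Ifit1 relatives Ifit1bl1 and Ifit1bl2 fell. Ifit1bl1 had 1.0 to 3.76 CPM (median 1.72) in vehicle kidneys, against 5.07, 4.79, 3.29 and 2.85 CPM in healthy kidneys, and the groups overlapped (log2 -0.91, SE 0.29, adjusted p = 0.0084, edgeR). Ifit1bl2 had 0.457 to 1.61 CPM (median 1.02) in vehicle kidneys, against 2.58, 2.13, 2.95 and 2.36 CPM in healthy kidneys, with no overlap (log2 -1.39, SE 0.48, adjusted p = 0.0145, edgeR). Both sit at low levels, and Ifit genes resemble each other closely, so reads may have been split between them.

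A further pair of genes that fell with obstruction are neighbours. Rsad2, which encodes the antiviral enzyme viperin, lies at chr12:26442746-26456452 on the minus strand, and Cmpk2, a mitochondrial nucleotide kinase, lies beside it at chr12:26469204-26479837 on the plus strand (GRCm38). Rsad2 had 26 to 50.3 CPM (median 46.4) in vehicle kidneys, against 64.1, 62.4, 48.2 and 48.6 CPM in healthy kidneys. Vehicle libraries reached into the healthy range, and the call (log2 -0.48, SE 0.17, adjusted p = 0.0164, edgeR) was lost with voom and without healthy replicate 1 or 2, with adjusted p up to 0.0805. Cmpk2 had 16.3 to 26.5 CPM (median 22.1) in vehicle kidneys, against 29.3, 30.9, 26.6 and 27.1 CPM in healthy kidneys. Every vehicle library lay just below every healthy one (log2 -0.44, SE 0.14, adjusted p = 0.00894, edgeR), which held for Cmpk2 and Ifit1bl2 among the 86 genes and for 19.5% of all tested genes. The other single effectors Mx1, Mx2, Bst2, Rtp4, Xaf1 and Isg20 rose.

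**Figure D2:**
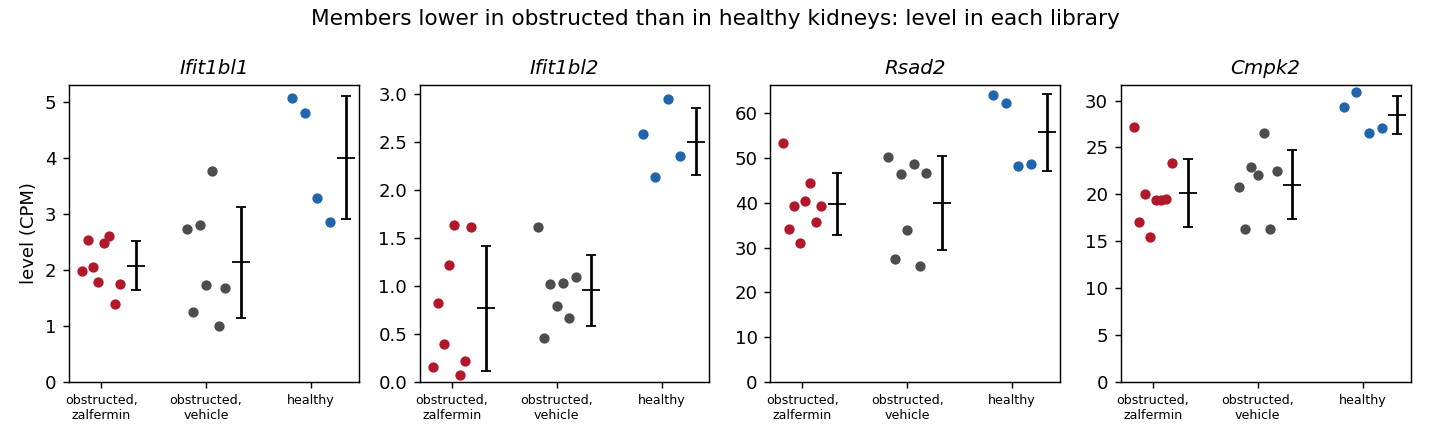
Level in CPM (vertical axes) of the 4 genes lower in obstructed than in healthy kidneys, with 1 point per library for zalfermin, vehicle and healthy, and the mean ± SD as bars beside the points. Healthy Ifit1bl2 lies above all obstructed libraries, at 2.13 to 2.95 CPM, and the other 3 genes approach or overlap the obstructed range.

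The p200 family had the highest median log2 fold change of the role groups with obstruction, and both it and the GTPases had a wide spread between libraries. The median of the GTPases lay below those of the OAS, IFITM, sensor and ISG15 system genes. Of the 14 genes of the guanylate-binding proteins (GBP) and immunity-related GTPases (IRG), which coat and disrupt the vacuoles of intracellular microbes, 12 rose and Gbp6 and Gbp10 were not called by edgeR. Gbp6 (log2 0.78, adjusted p = 0.070, edgeR) was called higher by voom and without vehicle replicate 6 (adjusted p = 0.0284), zalfermin replicate 6 or healthy replicate 4. Gbp2 had 45.9 to 119 CPM (median 98.3) in vehicle kidneys, against 17.8, 17.1, 15.8 and 14.4 CPM in healthy kidneys. It rose 5.92-fold (log2 2.57, SE 0.25, adjusted p = 7.37e-09, edgeR), Gbp3 6.13-fold, Gbp5 5.28-fold and Irgm1, a regulator of the IRG proteins, 2.04-fold. The call of Gbp2b, the gene nearest to the read limit, was lost without healthy replicate 4. Of the 10 p200 genes, a cluster on chromosome 1 that includes DNA-binding proteins, 9 rose. Ifi207 had 12.9 to 30.7 CPM (median 21) in vehicle kidneys, against 2.49, 2.04, 1.35 and 2.46 CPM in healthy kidneys. The rise of 10.2-fold came without overlap (log2 3.35, SE 0.24, adjusted p = 3.74e-11, edgeR), and Ifi204 rose 9.08-fold and Ifi211 8.22-fold. Ifi203-ps, annotated as a pseudogene, was not called by edgeR (log2 0.83, adjusted p = 0.0934), but was called higher by voom and by edgeR without vehicle replicate 6 (log2 0.97, adjusted p = 0.0166). The median coefficient of variation was 33.6% in zalfermin and 25.5% in vehicle libraries for the GTPases, and 26.4% and 34.0% for the p200 genes. Over all tested genes it was 12.2% and 18.8%. In zalfermin libraries these families had the highest values of the role groups. In vehicle libraries the IFIT genes, at 28%, lay above the GTPases, and the IFITM genes (21.5%) and single effectors (21.9%) also lay above all tested genes. These medians were not matched for level. GTPase genes resemble each other closely, as do p200 genes, so reads may be split within each family.

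Parp14, Parp9 and Dtx3l, an ADP-ribosylation and ubiquitin ligase group, rose 5.4-fold, 2.29-fold and 2.53-fold with no overlap of vehicle and healthy libraries. Parp9 and Dtx3l lie head to head and share 458 bases of exon on opposite strands, and the sources used here do not say how strand was treated in counting, so their reads may be mixed. Of 6 remaining Ifi and Isg genes 5 rose, led by Ifi27l2a, an interferon-induced gene, at 8.1-fold. Ifi30 and Ifi27 rose 1.9-fold and 1.7-fold, and Ifi44 was not called, with 17.3 ± 5.6 CPM in vehicle and 15.9 ± 5.35 CPM in healthy kidneys.

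**Figure D3:**
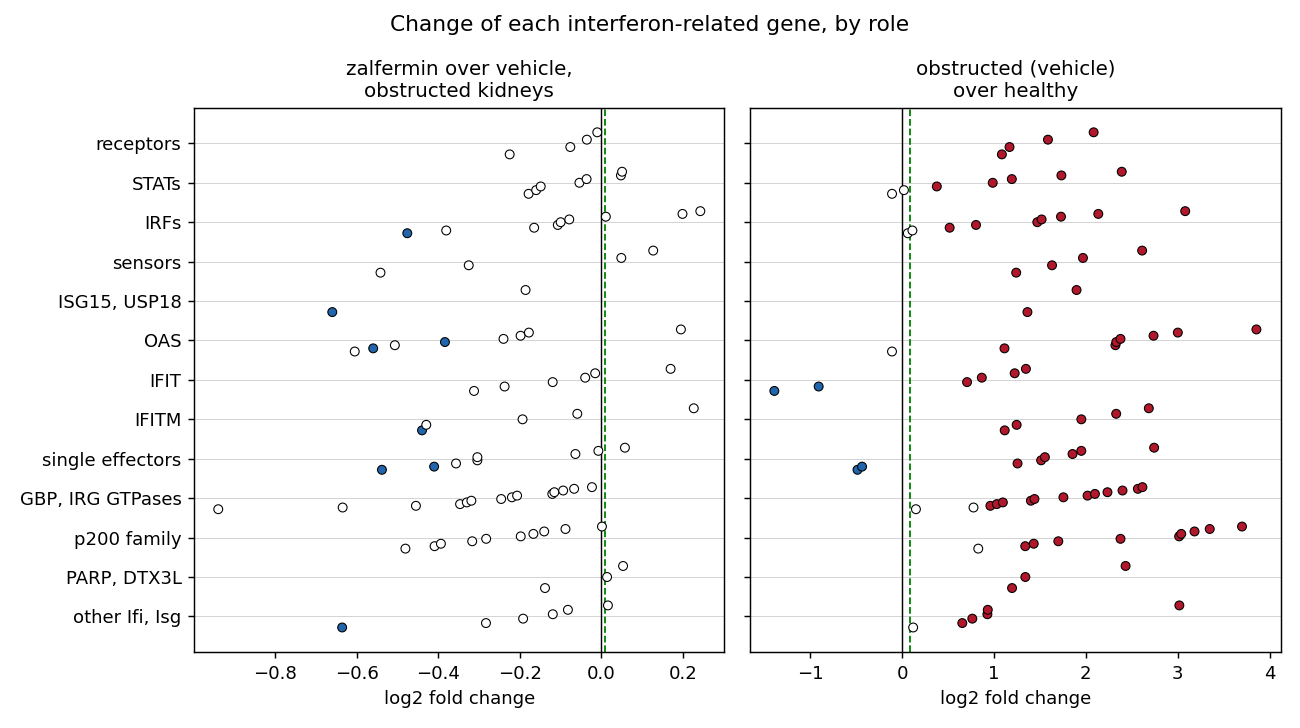
Log2 fold change (horizontal axes) of each of the 86 genes by role, for zalfermin over vehicle (left) and vehicle over healthy (right). Filled points are called at adjusted p under 0.05 (red higher, blue lower), open points are not, and the dashed line is the median of all tested genes, 0.01 on the left and 0.09 on the right; the 8 filled points on the left lie between -0.66 and -0.38.

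With zalfermin the interferon-related genes were shifted modestly downwards relative to vehicle, and 8 of them passed the test. Of the 86 genes 8 (9.30%) were called lower, against 0.942% of all tested genes, and none was called higher, against 0.867%. In either direction 1.81% of all tested genes were called. The 8 were Irf7, Isg15, Oas1a, Oasl2, Ifitm3, Bst2, Xaf1 and Ifi27l2a. The median log2 fold change was -0.17 over the 86 genes and 0.01 over all tested genes, and 71 of the 86 lay below 0, against 48% of all tested genes. At an unadjusted p under 0.05 edgeR had 21 of the 86 genes lower and 1 higher, against 7.53% of all tested genes lower and 7.94% higher. DESeq2 called 10 lower and none higher, against 2.13% and 1.62% of all tested genes. With voom 23 were called lower and none higher, against 4.03% and 3.13%. All 8 genes had risen with obstruction. The 2 comparisons share the vehicle libraries, so only their separate values are given.

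Irf7 had 29.9 to 48.5 CPM (median 37.7) in zalfermin kidneys and 48.2 to 59.1 CPM (median 55.3) in vehicle kidneys, against 10.6, 15.1, 13.1 and 10.7 CPM in healthy kidneys. Zalfermin libraries lay below the vehicle range apart from replicates 1 and 6, which just reached its lower edge. The level was 28.1% lower with zalfermin (log2 -0.48, SE 0.10, adjusted p = 0.0139, edgeR). Irf7 overlaps Phrf1 by 45 exonic bases on the opposite strand.

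Isg15 had 6.71 to 11.5 CPM (median 8.27) in zalfermin kidneys and 11.2 to 20.8 CPM (median 12.9) in vehicle kidneys, against 3.56, 4.17, 3.29 and 3.73 CPM in healthy kidneys. The highest vehicle value was that of replicate 6, and the groups touched only through zalfermin replicate 1 and vehicle replicate 7. The level was 36.7% lower with zalfermin (log2 -0.66, SE 0.14, adjusted p = 0.0158, edgeR).

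Oas1a had 4.41 to 7.6 CPM (median 6.2) in zalfermin kidneys and 8.1 to 9.97 CPM (median 8.75) in vehicle kidneys, against 1.78, 1.95, 1.69 and 1.67 CPM in healthy kidneys. Every zalfermin library lay below every vehicle library, which held for no other of the 86 genes and for 0.256% of all tested genes. In none of the 86 did every zalfermin library lie above every vehicle library, as it did in 0.349% of all tested genes. The level was 32.1% lower with zalfermin (log2 -0.56, SE 0.12, adjusted p = 0.0212, edgeR). Its close relative Oas1g, not called, had 1.94 ± 0.643 CPM in zalfermin and 2.75 ± 0.602 CPM in vehicle kidneys. Oasl2 had 24.2 to 40.8 CPM (median 32.3) in zalfermin and 34.6 to 46.7 CPM (median 44.4) in vehicle kidneys, against 9.96, 8.26, 7.0 and 8.55 CPM in healthy kidneys, and zalfermin replicates 1 and 6 lay within the vehicle range (log2 -0.38, SE 0.10, adjusted p = 0.0421, edgeR).

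Ifitm3, the most abundant of the 8 per kilobase, had 62.9 to 95.1 CPM (median 78.6) in zalfermin kidneys and 90.7 to 148 CPM (median 102) in vehicle kidneys, against 28.2, 30.4, 31.7 and 23.1 CPM in healthy kidneys. Vehicle replicate 6 was again highest, and zalfermin replicates 3 and 6 overlapped the lower vehicle values (log2 -0.44, SE 0.10, adjusted p = 0.0268, edgeR). Bst2, which encodes tetherin, the protein that holds budding virus at the cell surface, had 29.2 to 42 CPM (median 35.7) in zalfermin and 40.8 to 55.4 CPM (median 45.2) in vehicle kidneys, against 11.9, 17.3, 10.5 and 9.33 CPM in healthy kidneys. Only zalfermin replicate 1 reached the vehicle range (log2 -0.41, SE 0.11, adjusted p = 0.0466, edgeR).

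Xaf1, a pro-apoptotic antagonist of XIAP, had 6.65 to 12.6 CPM (median 9.26) in zalfermin kidneys and 12.1 to 14.3 CPM (median 13.3) in vehicle kidneys, against 4.63, 5.77, 3.79 and 3.93 CPM in healthy kidneys. Replicate 6 alone among zalfermin libraries entered the vehicle range (log2 -0.54, SE 0.12, adjusted p = 0.0258, edgeR). Ifi27l2a had 16.1 to 25.7 CPM (median 20.7) in zalfermin and 24.1 to 44.2 CPM (median 29.5) in vehicle kidneys, against 2.49, 4.71, 3.71 and 4.71 CPM in healthy kidneys, and zalfermin replicate 1 was the single overlapping library (log2 -0.64, SE 0.14, adjusted p = 0.018, edgeR). For each of the 8 genes all 8 zalfermin libraries lay below the vehicle median, but the genes were selected on that comparison. Every zalfermin library also lay above every healthy library for each of them, which held for 67 of the 86 genes and 29.4% of all tested genes.

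**Figure D4:**
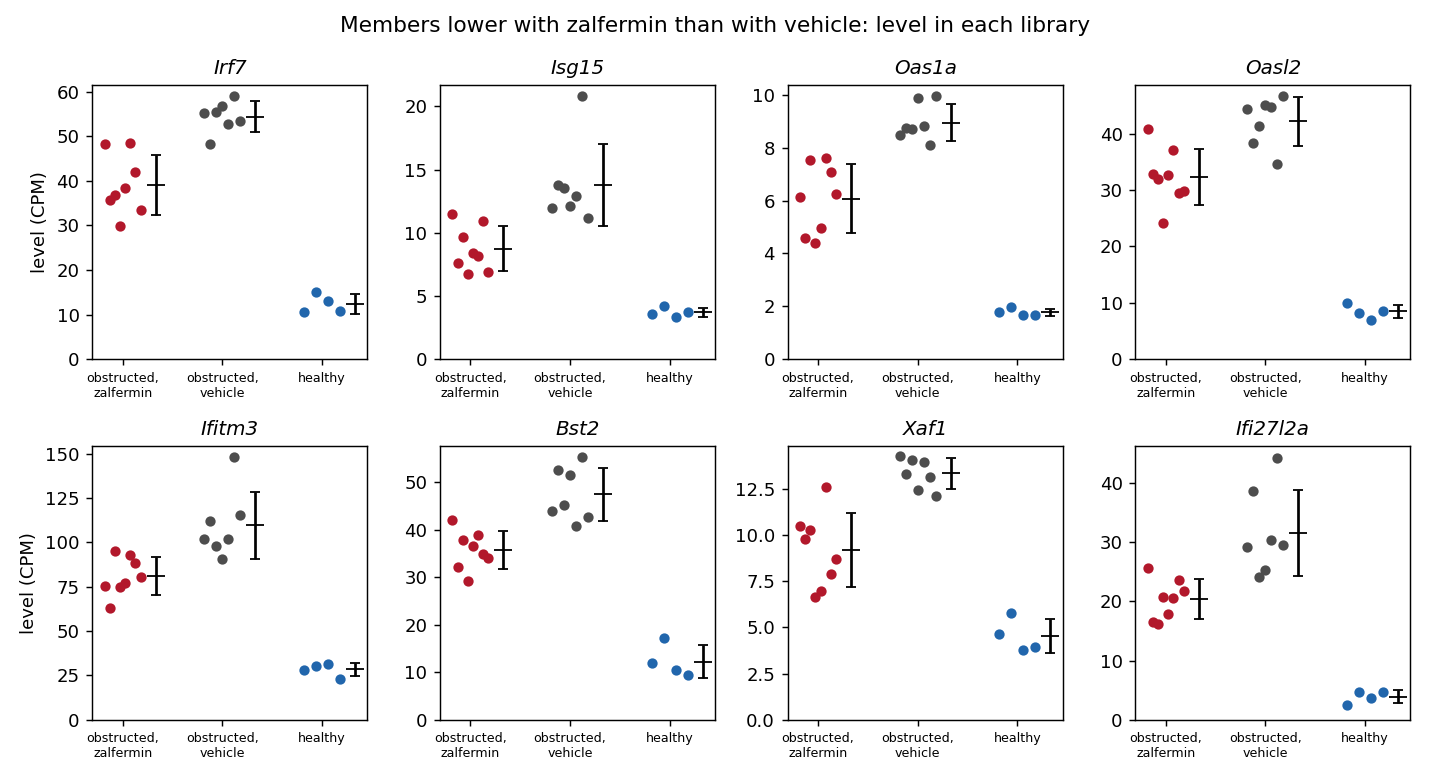
Level in CPM (vertical axes) of the 8 genes called lower with zalfermin than with vehicle, with 1 point per library for zalfermin, vehicle and healthy, and the mean ± SD as bars beside the points. The zalfermin mean lies between the vehicle and healthy means for each gene. Zalfermin and vehicle libraries overlap for each gene except Oas1a, which had 4.41 to 7.6 CPM with zalfermin and 8.1 to 9.97 CPM with vehicle.

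These calls differed in how far they held. Irf7, Isg15 and Ifi27l2a were called under all 27 alternative settings and left-out libraries, with adjusted p up to 0.0378, 0.0394 and 0.0471. Oas1a missed the threshold only without vehicle replicate 7 (adjusted p = 0.0516), and Xaf1 without zalfermin replicate 4, 5 or 7 (up to 0.0605). Ifitm3 missed it without vehicle replicate 2 or 7 or zalfermin replicate 2, 4 or 5 (up to 0.0625). Oasl2 and Bst2 were called in 13 of the 27, with adjusted p up to 0.0972 and 0.103. In these alternatives the log2 fold change of the 8 genes stayed between -0.73 and -0.33. The count of genes called lower was 8 in the full set, 11 without vehicle replicate 6 (Ifnar2, Zbp1 and Ifi209 being added), 9 without zalfermin replicate 6, 4 without vehicle replicate 7, zalfermin replicate 4 or zalfermin replicate 5, and 5 without zalfermin replicate 2 or 7. Over all tested genes the count called lower moved as well. It was 151 of 16026 in the full set, 275 of 15974 without vehicle replicate 6 and 211 of 15981 without zalfermin replicate 6. Without vehicle replicate 7 it was 86 of 15971, and without zalfermin replicate 4 or 5 it was 79 of 15990 or 73 of 15986.

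The other 78 genes were not called by edgeR between zalfermin and vehicle. Irf5 (log2 -0.38, adjusted p = 0.0951, edgeR) was called lower by DESeq2, by voom and in a fit of the obstructed groups alone. Irf1 (log2 -0.16, adjusted p = 0.404, edgeR) was called lower only without zalfermin replicate 6, its highest zalfermin library at 94.8 CPM. Oas3 (log2 -0.60, adjusted p = 0.235, edgeR) was called lower only without vehicle replicate 2 (adjusted p = 0.0334, edgeR), its lowest vehicle library at 1.18 CPM. Of the 4 sensor genes edgeR and DESeq2 called none and voom 2 lower, with 2 lower at an unadjusted p under 0.05. Among them Zbp1 had 5.76 to 13 CPM (median 8.59) in zalfermin and 8.3 to 15.1 CPM (median 13.5) in vehicle kidneys, against 2.22, 2.31, 0.843 and 3.04 CPM in healthy kidneys. Zbp1 was not called by edgeR with all libraries (log2 -0.54, adjusted p = 0.138, edgeR). It was called lower by voom, and by edgeR without vehicle replicate 6 (log2 -0.64, adjusted p = 0.0424). The IFIT genes differed by log2 values of -0.31 to 0.17, and the Parp9, Parp14 and Dtx3l group by -0.14 to 0.05. In both groups edgeR, DESeq2 and voom called none, and none had an unadjusted p under 0.05. All 14 GTPases had log2 values below 0, from -0.94 to -0.02, yet edgeR and DESeq2 called none of them, none had an unadjusted p under 0.05, and voom called 5 lower. Of the p200 genes voom called 4 lower and edgeR and DESeq2 none, with 1 at an unadjusted p under 0.05. Ifi209 (log2 -0.41, adjusted p = 0.429, edgeR) was called lower by voom and without vehicle replicate 6 (log2 -0.59, adjusted p = 0.0381).

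For the GTPases 1 library stood apart in each obstructed group. Their summed level was 383 to 714 CPM (median 453) in zalfermin kidneys and 274 to 609 CPM (median 561) in vehicle kidneys, against 184, 167, 174 and 175 CPM in healthy kidneys. Zalfermin replicate 6 was the highest of its group for all 14 GTPases and for 39 of the 86 genes, and vehicle replicate 6 was the lowest of its group for 12 of the 14 and for 49 of the 86. The next highest zalfermin library had 576 CPM and the next lowest vehicle library 535 CPM. Vehicle replicate 6 was also the highest of its group for 19 genes, Isg15, Ifitm3 and Ifi30 among them. The summed level of the 8 genes lower with zalfermin was 197 to 267 CPM in zalfermin, 300.3 to 384 CPM in vehicle and 65.7 to 87.6 CPM in healthy libraries. Replicate 6 was the highest of its group here both for zalfermin and for vehicle. The T and NK cell markers summed to 31.5 CPM in zalfermin replicate 6 and to 11 to 17.4 CPM in the other zalfermin libraries, and to 17.4 CPM in vehicle replicate 6 and 19.9 to 30.7 CPM in the other vehicle libraries. Monocyte markers summed to 179.8 CPM in zalfermin replicate 6 and 123 to 157 CPM in the other zalfermin libraries, and to 73.6 CPM in vehicle replicate 6 and 130 to 188 CPM in the other vehicle libraries. Conventional dendritic cell markers had the same order, at 39.4 CPM against 26 to 31.5 CPM for zalfermin and 23.2 CPM against 28.4 to 38.9 CPM for vehicle. Macrophage markers were highest in zalfermin replicate 6 (1164 CPM), while vehicle replicate 6 (1156 CPM) lay within the range of the other vehicle libraries (968 to 1285 CPM). Neutrophil markers lay within the range of the other libraries in replicate 6 of zalfermin (15.8 CPM) and of vehicle (17.5 CPM). B and plasma cell and endothelial markers did so in zalfermin replicate 6 and were lowest in vehicle replicate 6. Fibroblast and plasmacytoid dendritic cell markers followed the macrophage order. Nephron markers ran the other way, lowest in zalfermin replicate 6 (5868 CPM) and highest in vehicle replicate 6 (9372 CPM). The part of any of these cells in the GTPase levels was not tested.

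**Figure D5:**
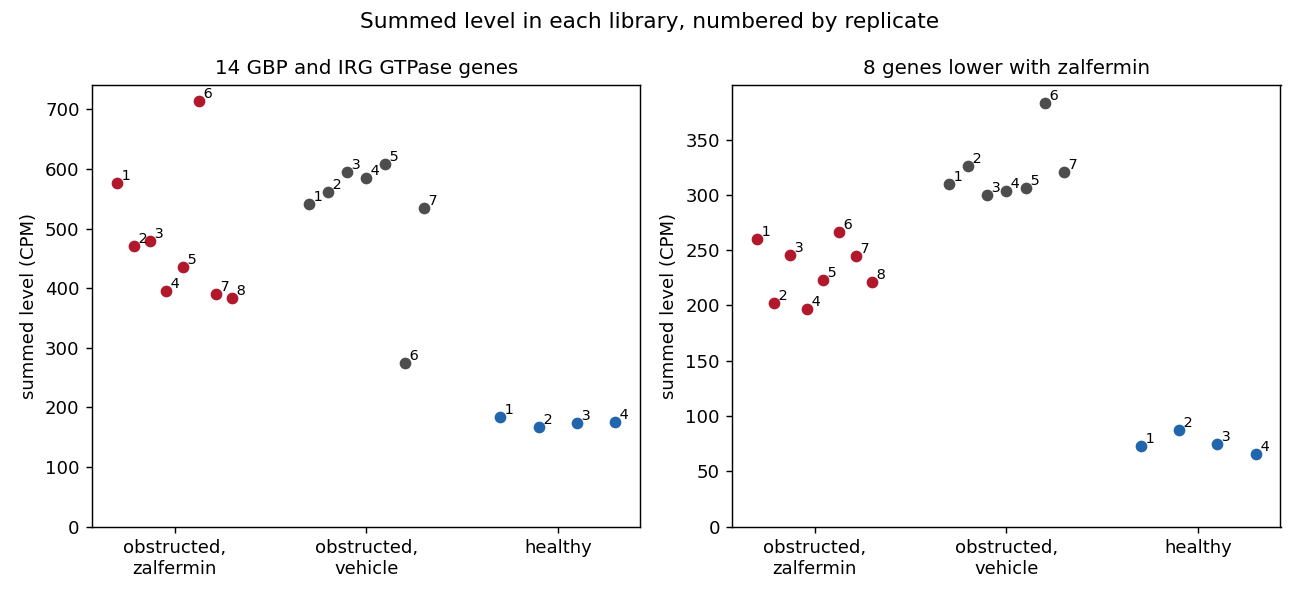
Summed level in CPM (vertical axes) of the 14 GBP and IRG GTPase genes (left) and of the 8 genes lower with zalfermin (right) in each library, numbered by replicate, for zalfermin, vehicle and healthy. On the left zalfermin replicate 6 (714 CPM) and vehicle replicate 6 (274 CPM) stand apart from their groups, and on the right the zalfermin and vehicle libraries do not overlap, as these genes were selected on that comparison.

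Markers of other cells were compared in the same libraries. The 8 macrophage markers summed to 793 to 1164 CPM in zalfermin and 968 to 1285 CPM in vehicle kidneys. None was called by edgeR, DESeq2 or voom, and 3 were lower at an unadjusted p under 0.05. Of 8 T and NK cell markers edgeR and DESeq2 called none and voom 2 lower, 3 were lower at an unadjusted p under 0.05, and their median log2 fold change was -0.54. Of 4 fibroblast markers edgeR called 2 lower, Col1a1 and Col1a2, DESeq2 called 3 and voom all 4, all 4 were lower at an unadjusted p under 0.05, and the sum was 972 to 1471 CPM in zalfermin and 1625 to 2917 CPM in vehicle kidneys. Of 4 monocyte markers 1, Chil3, was called higher by edgeR (log2 1.78, adjusted p = 0.0287) and DESeq2 and none by voom, and the sum was 123 to 179.8 CPM in zalfermin and 73.6 to 188 CPM in vehicle kidneys. For 4 neutrophil, 3 tested B and plasma cell, 4 conventional dendritic cell and 4 endothelial markers edgeR and DESeq2 called none, voom called 1 B and plasma cell and 1 conventional dendritic cell marker lower, and 1 B and plasma cell marker was lower at an unadjusted p under 0.05. Of the 8 nephron markers edgeR called none, DESeq2 called 1 and voom 3 higher, and 3 were higher at an unadjusted p under 0.05. Of 4 plasmacytoid dendritic cell markers, a cell type known for high output of type I interferon, 2 had enough reads to be tested, none was called by edgeR, DESeq2 or voom or had an unadjusted p under 0.05, and the sum of the 4 stayed at 1.30 to 2.88 CPM in zalfermin, 1.37 to 3.30 CPM in vehicle and 0.356 to 2.22 CPM in healthy kidneys. The part of any of these cells in the 8 calls was not tested.

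In zalfermin-treated obstructed kidneys the interferon-related genes were also mostly above healthy levels. Of the 86 genes 73 were called higher and 4 lower than in healthy kidneys, where 64.3% of all tested genes were called (37.3% higher and 27% lower). The median log2 fold change was 1.30, against 0.13 over all tested genes, and 56 genes were at least 2-fold higher. The share of all tested genes at this fold is again not given. For 67 genes every zalfermin library lay above every healthy library, against 29.4% of all tested genes, and for 2 genes, Ifit1bl1 and Ifit1bl2, every zalfermin library lay below, against 21.7%. Irf7 was 3.16-fold, Isg15 2.36-fold, Oas1a 3.42-fold and Ifi27l2a 5.21-fold above healthy kidneys. The same libraries of healthy kidneys serve both comparisons, so the values are set side by side and not tested against each other.

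Transcripts of the interferons themselves were barely detected. Of 21 interferon ligand genes 16 had no read in any library, and none had enough reads to be tested. Ifng, which encodes interferon gamma, had 13 reads over 5 of the 8 zalfermin libraries and 9 reads over 4 of the 7 vehicle libraries, and no read in healthy libraries. Ifnb1, which encodes interferon beta, had 1 read in each obstructed group and none in healthy libraries. All ligand genes together had 19 reads in zalfermin, 12 in vehicle and 2 in healthy libraries, so differences in ligand transcripts were not detectable at this depth.

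Of 39 tested genes that work with the interferon receptors and sensors, 28 were called higher and 2 lower with obstruction and 9 were not called by edgeR, against 36.2% of all tested genes higher and 28.6% lower. Of 18 receptor kinases, partners and inhibitors, 14 were called higher and 1 lower in vehicle than in healthy kidneys. The largest rise among the examples was that of Socs3, a feedback inhibitor of STAT3 signalling, at 78.9 ± 11.8 CPM in zalfermin, 96.9 ± 22.2 CPM in vehicle and 4.54 ± 1.61 CPM in healthy kidneys (log2 4.42 for vehicle over healthy, SE 0.23, adjusted p = 3.06e-13, edgeR). Ube2l6 and Uba7, enzymes of ISG15 conjugation, also rose (log2 1.69 and 1.47), and Pias2 fell (log2 -0.37). Of 21 tested genes of nucleic acid sensing upstream of interferon, 14 were higher and 1 lower. Tmem173, which encodes STING, had 34.2 ± 6.02 CPM in zalfermin, 39.8 ± 3.27 CPM in vehicle and 2.87 ± 0.0915 CPM in healthy kidneys (log2 3.79 for vehicle over healthy, SE 0.15, adjusted p = 1.14e-14, edgeR). Unc93b1, a chaperone of Toll-like receptors, and Myd88, their adaptor, rose (log2 2.59 and 1.28), and Irak1 fell (log2 -0.31). Between zalfermin and vehicle edgeR called none of these 39 genes. At an unadjusted p under 0.05 it had 3 higher and 5 lower, DESeq2 called 1 lower and voom 2 lower.

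Of 49 tested interferon-induced genes that the symbol rule does not reach, 42 were higher and 2 lower in vehicle than in healthy kidneys, with a median log2 fold change of 1.56. Lgals3bp, Psmb8, an immunoproteasome subunit, and Slfn2 had the smallest p (log2 2.12, 2.30 and 2.20), and Nampt, the enzyme of NAD salvage, and Pnpt1, a mitochondrial RNA nuclease, were lower (log2 -0.77 and -0.52). Between zalfermin and vehicle edgeR called 1 higher and 1 lower, against 0.867% and 0.942% of all tested genes, and the median was -0.19. DESeq2 called 1 higher and 3 lower, voom 1 higher and 15 lower, and at an unadjusted p under 0.05 edgeR had 1 higher and 14 lower. Lgals9, which encodes galectin-9, had 32.2 ± 3.33 CPM in zalfermin, 41.4 ± 4.78 CPM in vehicle and 10.7 ± 2.05 CPM in healthy kidneys (log2 -0.36 for zalfermin over vehicle, SE 0.09, adjusted p = 0.0426, edgeR). Nampt had 179.8 ± 18.7 CPM in zalfermin, 126 ± 31.1 CPM in vehicle and 213 ± 7.0 CPM in healthy kidneys, and was higher with zalfermin than with vehicle (log2 0.52, SE 0.13, adjusted p = 0.0418, edgeR).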

How the data were processed

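The authors deposited raw read counts per gene, whole numbers without normalization, for 19 kidney libraries. Per the submitters' processing notes reads were aligned with STAR 2.7.0f to GRCm38, and per the labels' protocols total RNA went through a directional library kit. The sources used here do not name the counting program, how it treated strand, or its annotation and filters. Of the genes described, 18 share exonic bases with a gene on the opposite strand and 18 with a gene on the same strand, which could mix their reads.

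Groups were taken from the treatment label. Genes passed edgeR's filterByExpr (minimum count 10, minimum total 15), libraries were scaled by TMM (factors of 1.02 to 1.08 for zalfermin, 1.02 to 1.11 for vehicle and 0.751 to 0.843 for healthy libraries), and 1 quasi-likelihood model (edgeR 4.0.16, R 4.3.3) over all 19 libraries gave two-sided tests. The SE of a log2 fold change is its size over the root of the F statistic. The scripts were tested on simulated data. No 2 libraries of a group agreed within counting noise (chi-square over degrees of freedom 5.89 or more). Coordinates and exon lengths came from GENCODE M21, promoter windows from RefSeq (GRCm38.p6).

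The members, the gene lists and the markers were chosen with earlier results of these data known. Named were the receptors, STATs and IRFs; 2 of the 86 genes are counted but not reported singly here. In each other role group the 3 genes with the smallest p in vehicle against healthy kidneys, any called against the majority and the most abundant were named, as was every gene called between zalfermin and vehicle. Other genes were named after their values were seen. Printed promoters with an ISRE core were the smallest-p gene of a role group, at most 6, with Isg15 added, and Ifngr2 has none.

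Alternatives were DESeq2 1.42.0, limma-voom 3.58.1 with quality weights, scaling by RLE or by the upper quartile, testing without a filter or with 1 CPM required in 10 libraries, fitting the compared groups alone, robust fitting, stricter thresholds (adjusted p under 0.01, or a fold of at least 1.5), at least 1000 reads for membership, and each library left out in turn. Raw reads were not used.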

Additional observations from a re-analysis of the deposited data

Results flagged for a closer look

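Dixon's criterion was applied to the 54 genes named by rule in each of 3 groups. Of these 162 sets of libraries, 20 had a highest or lowest value standing far from the rest. Chance alone flags about 1 in 20 groups. The sets share the same 19 libraries and are not independent, so 20 of 162 cannot be set against this rate. The cause was not tested for any of the flagged sets.

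In zalfermin replicate 6 the highest value of its group was Gbp2 at 152 CPM (next 97.3), Irf1 at 94.8 CPM (next 68.6), Ifnar2 at 39.2 CPM (next 35.7) and Stat4 at 2.40 CPM (next 1.33). In zalfermin replicate 1 Ifitm10 was lowest at 2.96 CPM (next 4.41).

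Vehicle replicate 6 was lowest of its group for Ifngr1 at 106 CPM (next 134), Irgm1 at 77.2 CPM (next 122), Gbp2 at 45.9 CPM (next 92.5), Irf9 at 45.0 CPM (next 52.0), Parp9 at 39.2 CPM (next 60.5) and Ifi204 at 9.91 CPM (next 20.9). The same library was highest for Stat3 at 265 CPM (next 246), Ifitm3 at 148 CPM (next 115), Ifi30 at 120.0 CPM (next 99.8) and Isg15 at 20.8 CPM (next 13.8). In vehicle replicate 4 Ifnar1 was highest at 124 CPM (next 107).

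Among healthy libraries, replicate 4 was highest for Stat6 at 119 CPM (next 101) and lowest for Stat5a at 20.7 CPM (next 29.2), and replicate 1 was lowest for Ifi30 at 41.9 CPM (next 51.8) and Irf8 at 13.6 CPM (next 17.2).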

How the results depend on the processing

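The number of genes called lower with zalfermin depended most on the settings. It was 8 in the fit reported, 23 with voom, 0 at adjusted p under 0.01 (edgeR, which had 21 at an unadjusted p under 0.05), 2 with a fold of at least 1.5 added, and 4 to 11 with 1 library left out; no setting called a gene higher. The 4 genes lower in vehicle than in healthy kidneys became 2 at adjusted p under 0.01, 2 with the fold added, 2 with at least 1000 reads, and 3 to 5 with 1 library left out. For zalfermin against healthy kidneys the 4 became 2 with the fold added, 2 with at least 1000 reads, and 3 to 5 with 1 library left out. The 73 higher genes stayed at 72 to 75 for vehicle and 71 to 73 for zalfermin, both against healthy kidneys, with 1 library left out. The cause of these shifts was not tested.

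No called log2 fold change of a named gene changed sign in these alternatives. Of 1458 values each, 1453 for vehicle against healthy, 1449 for zalfermin against healthy and 1408 for zalfermin against vehicle kept their side of the threshold. Most named genes were not called between zalfermin and vehicle, so most of the 1408 kept their side by staying uncalled. In that comparison 37 values of the 8 called genes lost the call, and 13 values of uncalled genes gained one. The stricter thresholds are not among these values. With 12209122 to 14844103 reads a library, genes of a few reads such as Gbp2b and the interferon ligands are poorly measured. No paired analysis was possible because the labels carry no shared replicate numbers.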
